A study of Mus musculus with 7 samples.

Results

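The 5 receptors described here, Cd48, Slamf1, Cd84, Ly9 and Cd244a, belong to the SLAM family (signaling lymphocytic activation molecules), and 2 of them encode surface proteins of the gate with which the cells were sorted. Members were taken by gene symbol from the count table and number 5 of 21615 genes, and all 5 passed the filter on low counts together with 16648 other genes (16653 tested). The study compared 2 subsets of megakaryocyte progenitors (MkPs), the bone marrow cells that mature into megakaryocytes and shed platelets, to ask how progenitors on separate routes of platelet production differ. CD48-/lo MkPs gave 3 libraries and CD48hi MkPs gave 4, all from the bone marrow of C57BL/6 mice, with no treatment or altered allele named in the labels. Both gates took lineage-negative, Sca-1-negative cells carrying CD117, CD150 and CD41, so that CD150, the product of Slamf1, was required of every cell, while CD48, the product of Cd48, separated the subsets. The labels do not say how many mice stand behind a library, nor their age or sex, so the p-values below capture library-to-library spread, which may be technical.

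SLAM receptors are immunoglobulin-type surface proteins of blood cells, best known from lymphocytes, where most of them bind a copy of themselves on a neighboring cell. CD48 and CD244 instead bind each other. CD48 has no cytoplasmic tail, is held in the membrane by a glycosylphosphatidylinositol (GPI) anchor, and in the mouse is also bound by CD2. The other 4 have tails that recruit small SH2-domain adaptors of the SAP group and, through them, Src family kinases such as FYN. In mouse bone marrow, CD150 together with absence of CD48 is the classical surface phenotype of hematopoietic stem cells, and CD48 appears on most progenitors downstream of them. CD84 is also known from megakaryocytes and platelets.

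Library totals lay between 48899037 and 51161449 counts in CD48-/lo and between 51537445 and 69324909 counts in CD48hi MkPs, and the CD48-/lo libraries came from fewer sorted cells (5348 to 6497 cells in CD48-/lo, against 14033 to 20826 cells in CD48hi libraries). Markers of the megakaryocyte lineage were counted in all libraries except for Gp6, which had 0 reads in CD48-/lo replicates 1 and 4. The summed level of the 9 genes was 3044 to 5864 CPM in CD48-/lo and 2805 to 4288 CPM in CD48hi MkPs (CPM, counts per 1000000 counts of the library after TMM scaling). CD48-/lo replicate 3 stood apart from the other CD48-/lo libraries in its share of mitochondrially encoded counts (0.482%, against 2.61% and 2.91% in replicates 1 and 4), a share close to the 0.138% to 0.400% of CD48hi libraries. Differences of the members are therefore also given without it. This leaves CD48-/lo replicates 1 and 4, whose share was above that of all other libraries. In both of them Cd84 and Ly9 lay above every CD48hi library. Whether the share bears on these levels was not tested.

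Cd48 (chromosome 1, 171682009 to 171705258 on the forward strand, mm10) is the gene of the antigen that divided the sort, so its transcript checks the gate and is no independent finding. Cd48 was at 14.0, 4.98 and 11.4 CPM in CD48-/lo replicates 1, 3 and 4, against 15.8, 43.0, 23.6 and 33.3 CPM in CD48hi replicates 1, 3, 4 and 5. Each CD48-/lo library lay below each CD48hi library, but CD48-/lo replicate 1 and CD48hi replicate 1 were neighbors, 14.0 and 15.8 CPM. The log2 difference was -1.51 ± 0.45 (SE), a level 2.85-fold lower in CD48-/lo MkPs, and was not called (adjusted p = 0.181 over all tested genes, quasi-likelihood test of edgeR). It passed with DESeq2 (log2 difference -1.57, adjusted p = 0.0147). Without CD48-/lo replicate 3 the log2 difference was -1.31 (adjusted p = 0.193, edgeR). Cd48 transcripts were thus counted in all CD48-/lo libraries, with 1568 reads over the 3. In bulk RNA, fewer cells with a transcript and less transcript per cell cannot be told apart.

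Of the 5 receptors, none was called by edgeR, where 0.192% of all tested genes were called, 0.0841% as higher and 0.108% as lower in CD48-/lo MkPs. At an unadjusted p under 0.05 Cd48 was the one member to pass, where 17.2% of tested genes did (8.37% higher and 8.87% lower). DESeq2 called 1 of 5, where it called 5.86% of genes (2.67% higher and 3.19% lower), and limma-voom called none, where it called 2.36%. Cd48 was also the one member whose groups did not overlap, as was so for 14.6% of all tested genes (higher in CD48-/lo MkPs for 7.52% and lower for 7.06%). A log2 difference as low as that of Cd48 or lower was found in 3.48% of tested genes.

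**Figure D1:**
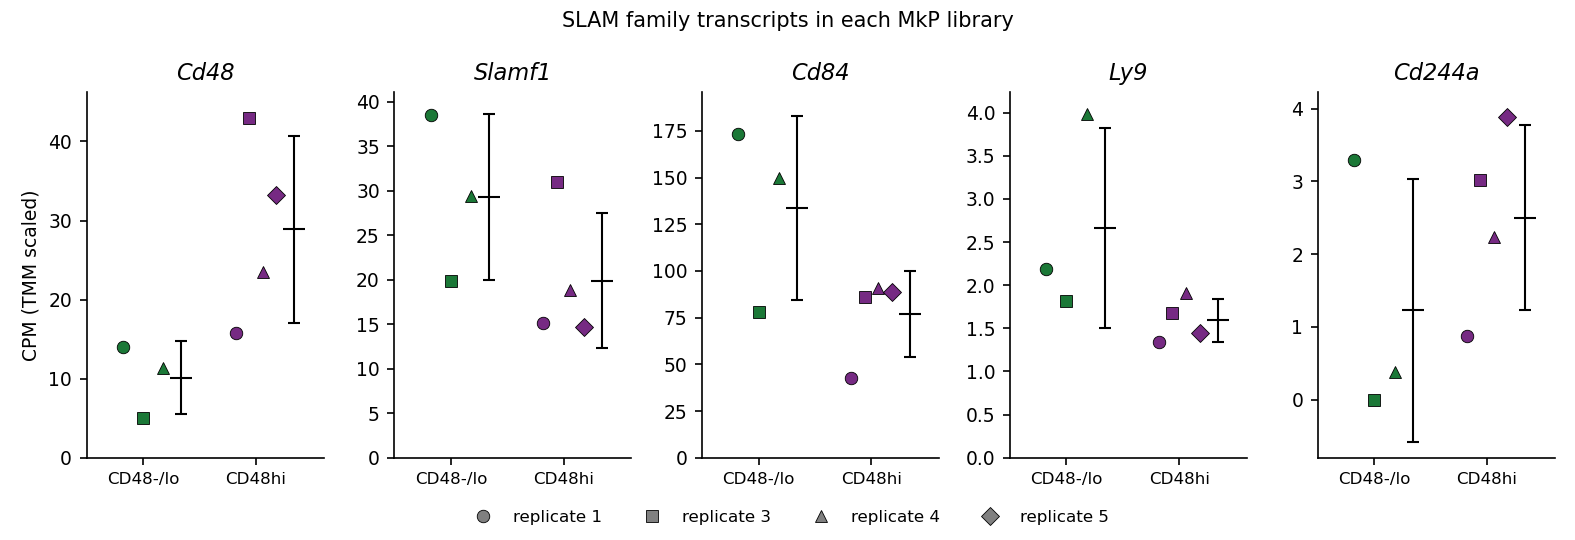
Level of each SLAM family transcript in CPM (vertical axis, TMM scaled, linear) in 3 CD48-/lo and 4 CD48hi libraries; marker shapes give the replicate number, and bars give the mean ± SD of the group. Only Cd48 shows no overlap between the groups (4.98 to 14.0 CPM in CD48-/lo, 15.8 to 43.0 CPM in CD48hi MkPs).

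Slamf1 (chromosome 1, 171767127 to 171801184, forward strand) encodes CD150, on which both subsets were positively gated. Its level was 38.5, 19.9 and 29.4 CPM in CD48-/lo replicates 1, 3 and 4, against 15.2, 30.9, 18.9 and 14.7 CPM in CD48hi replicates 1, 3, 4 and 5. The groups overlapped, since CD48hi replicate 3 lay above CD48-/lo replicates 3 and 4. The means were 29.3 ± 9.33 CPM in CD48-/lo and 19.9 ± 7.59 CPM in CD48hi MkPs (SD, n = 3 and n = 4), and the log2 difference of 0.56 ± 0.36 (SE) was not called (adjusted p = 0.437, edgeR). Without CD48-/lo replicate 3 it was 0.65 (adjusted p = 0.381), and without CD48-/lo replicate 1 it shrank to 0.21 (adjusted p = 0.885).

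The bases around the starts of these genes are shown because Cd48 and Slamf1 are the receptors of the gate. They are 275 bases on the forward strand, 250 before and 25 after the start that RefSeq gives (GRCm38.p6), chr1:171681742-171682016 for Cd48 and chr1:171766882-171767156 for Slamf1. Capitals mark matches, on either strand, to motifs of factor families active in this lineage, chosen after the sequences were seen.
Cd48: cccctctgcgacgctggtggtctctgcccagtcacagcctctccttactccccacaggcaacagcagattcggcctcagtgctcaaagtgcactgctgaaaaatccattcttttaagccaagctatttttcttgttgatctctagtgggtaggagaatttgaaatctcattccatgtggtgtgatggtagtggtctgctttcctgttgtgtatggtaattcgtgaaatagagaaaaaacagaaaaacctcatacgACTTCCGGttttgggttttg
Slamf1: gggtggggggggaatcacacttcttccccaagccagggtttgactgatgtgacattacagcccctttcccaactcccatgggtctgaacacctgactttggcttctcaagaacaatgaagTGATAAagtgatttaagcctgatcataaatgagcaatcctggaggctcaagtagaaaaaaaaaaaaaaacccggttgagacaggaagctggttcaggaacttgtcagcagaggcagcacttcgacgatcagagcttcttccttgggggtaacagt
The capitals of Cd48 are the ETS-type motif CCGGAAGT read on the opposite strand, and those of Slamf1 are the GATA-type motif TGATAA. Of 32851 windows of this length in the RefSeq table, 3.61% held CCGGAAGT and 17.7% held TGATAA or AGATAA, the GATA-type motifs searched. The E-box CACGTG was also searched (6.68% of windows). It was in the window of Cd244a, while the window of Cd84 held none of the 4 motifs. No motif overlapped another in these windows. A match is a description of the letters and no evidence of binding.

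Cd84 (chromosome 1, 171839697 to 171890718, forward strand), the receptor with the highest counts of the 5, was at 173, 78.2 and 149.7 CPM in CD48-/lo replicates 1, 3 and 4, against 42.8, 86.0, 90.7 and 88.8 CPM in CD48hi replicates 1, 3, 4 and 5. CD48-/lo replicates 1 and 4 lay above every CD48hi library, and CD48-/lo replicate 3 lay among them. The log2 difference was 0.79 ± 0.36 (SE), a level 1.73-fold higher in CD48-/lo MkPs, with an unadjusted p of 0.051 and an adjusted p of 0.290 (edgeR). It was 0.96 without CD48-/lo replicate 3 (adjusted p = 0.208) and 0.45 without CD48-/lo replicate 1 (adjusted p = 0.705).

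Cd244a, which encodes the receptor of CD48 known as 2B4 from natural killer cells, and Ly9, which encodes the lymphocyte receptor CD229, had few counts. Cd244a stood at 3.30, 0 and 0.384 CPM in CD48-/lo replicates 1, 3 and 4, against 0.879, 3.02, 2.23 and 3.88 CPM in CD48hi replicates 1, 3, 4 and 5. No read was counted in CD48-/lo replicate 3, which allows a level of up to 0.0572 CPM (3 counts, counting error only), while CD48-/lo replicate 1 was exceeded by CD48hi replicate 5 alone. The log2 difference of -1.03 ± 1.20 (SE, adjusted p = 0.684, edgeR) rests on single libraries, since it became -3.84 without CD48-/lo replicate 1 (adjusted p = 0.351) and -0.55 without CD48-/lo replicate 3 (adjusted p = 0.776). Ly9 stood at 2.18, 1.81 and 3.98 CPM in CD48-/lo replicates 1, 3 and 4, against 1.34, 1.67, 1.91 and 1.45 CPM in CD48hi replicates 1, 3, 4 and 5. Here CD48-/lo replicates 1 and 4 lay above all CD48hi libraries, and the log2 difference of 0.74 ± 0.47 (SE) was not called (adjusted p = 0.435, edgeR), with 0.83 without CD48-/lo replicate 3 (adjusted p = 0.389) and 0.33 without CD48-/lo replicate 4 (adjusted p = 0.873). These values rest on 0 to 239 reads per library for Cd244a and 87 to 197 for Ly9.

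The 2 genes share ground. Ly9 (chromosome 1, 171588624 to 171607410, reverse strand) lies inside the annotated span of Cd244a (chromosome 1, 171559193 to 171609746, forward strand). In GENCODE M21 that span comes from 1 of 4 Cd244a transcripts, Cd244a-203, labeled as nonsense-mediated decay, whereas the protein-coding transcript Cd244a-201 ends at 171585318, before Ly9. The genes share 0 exonic bases, so that each exonic base is annotated to 1 gene. Unspliced RNA of Cd244a-203 can still give reads within exons of Ly9, and reads from unspliced RNA of the 2 genes cannot be told apart without strand. Cd48, Slamf1 and Cd84 share no exonic base with another gene of the table either. Gm37010, annotated within the span of Cd48, had 1 read in CD48-/lo and 24 reads in CD48hi libraries.

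**Figure D2:**
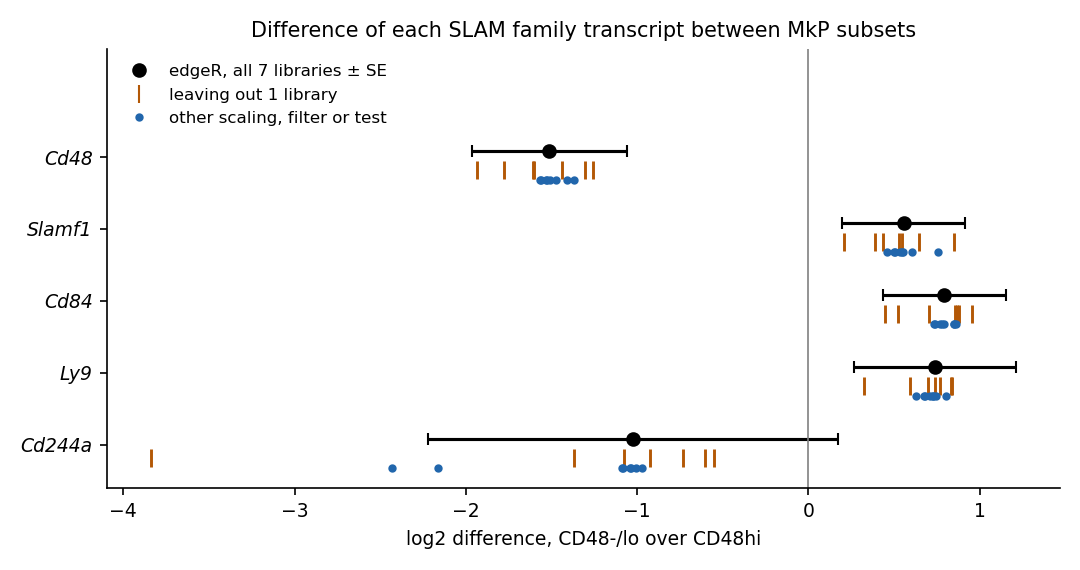
Log2 difference of each receptor, CD48-/lo over CD48hi (horizontal axis); black points with bars are the edgeR estimate ± SE over 7 libraries, orange ticks leave out 1 library each, and blue points use another scaling, filter or test. Cd48 stays between -1.94 and -1.25 throughout, whereas Cd244a spans -3.84 to -0.55.

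Some receptors, but not all, were low or high in the same libraries. Among CD48-/lo libraries, replicate 1 had the highest level of Cd48, Slamf1, Cd84 and Cd244a, and replicate 3 had the lowest level of all 5 receptors. Among CD48hi libraries, replicate 3 had the highest level of both Cd48 and Slamf1. Pearson correlations of log2 CPM over the 7 libraries, which share the group difference and are given as a description, were 0.77 between Slamf1 and Cd84, 0.75 between Cd84 and Ly9 and 0.88 between Cd48 and Cd244a. Slamf1 and Ly9 had 0.60, and the remaining 6 of 10 pairs lay between -0.35 (Cd48 and Ly9) and 0.17 (Cd84 and Cd244a). Cd244a had 0 reads in CD48-/lo replicate 3 and 19 reads in CD48-/lo replicate 4, so its correlations depend on the prior count of 2 used here.

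Ratios of 2 receptors within a library do not depend on how libraries are scaled. Slamf1 had 2.75, 3.99 and 2.59 reads per read of Cd48 in CD48-/lo replicates 1, 3 and 4, against 0.959, 0.72, 0.802 and 0.442 in CD48hi replicates 1, 3, 4 and 5. The lowest CD48-/lo ratio was above the highest CD48hi ratio. Cd84 had 12.4, 15.7 and 13.1 reads per read of Cd48 in CD48-/lo replicates 1, 3 and 4, against 2.71, 2.00, 3.85 and 2.67 in CD48hi replicates 1, 3, 4 and 5. These groups did not overlap either. On the log2 scale the ratio averaged 3.77 ± 0.18 in CD48-/lo and 1.45 ± 0.39 in CD48hi MkPs (SD, n = 3 and n = 4). A clean separation is common for ratios to Cd48, since the ratio of a tested gene to Cd48 was higher in all CD48-/lo than in all CD48hi libraries for 42.9% of the 16653 genes. Cd84 over Slamf1 overlapped between the groups, with 3.94 to 5.08 in CD48-/lo and 2.78 to 6.05 in CD48hi MkPs.

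**Figure D3:**
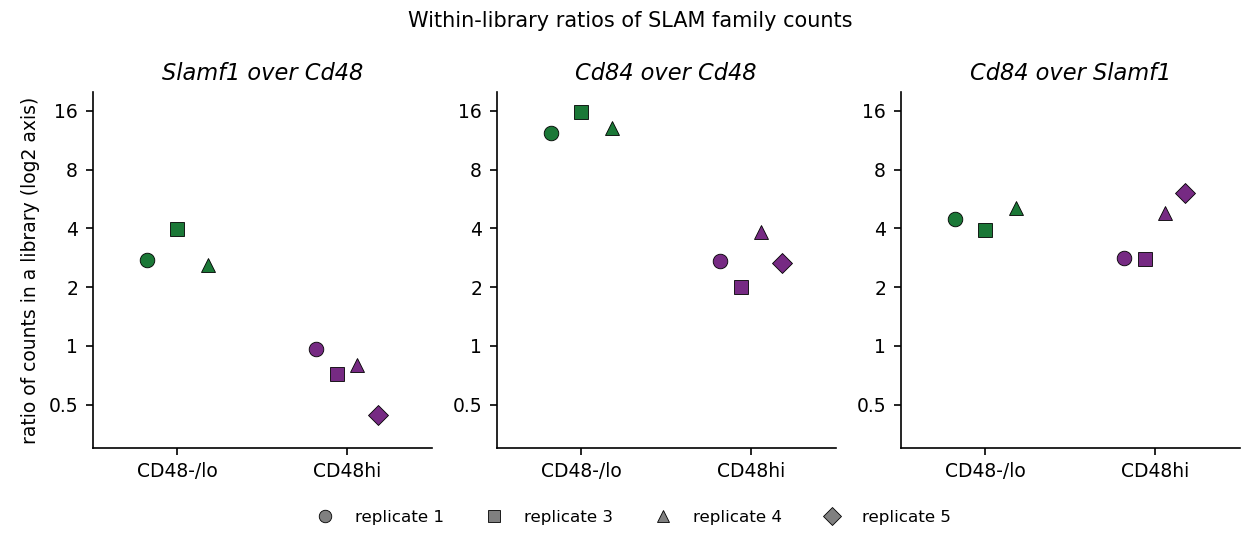
Number of reads of one receptor per read of another in the same library (vertical axis, log2 axis) for 3 CD48-/lo and 4 CD48hi libraries; marker shapes give the replicate number. Slamf1 over Cd48 (2.59 to 3.99 in CD48-/lo, 0.442 to 0.959 in CD48hi) and Cd84 over Cd48 (12.4 to 15.7 in CD48-/lo, 2.00 to 3.85 in CD48hi) separate the groups, and Cd84 over Slamf1 does not.

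Levels of different genes were compared per kilobase of the gene length in the table. In CD48-/lo MkPs Cd84 led with 21.3 ± 7.88 CPM per kilobase, followed by Cd48 with 8.52 ± 3.91, Slamf1 with 4.75 ± 1.52, Ly9 with 0.804 ± 0.351 and Cd244a with 0.252 ± 0.370 CPM per kilobase (SD, n = 3). The ranges of Cd48 and Slamf1 overlapped, as did those of Ly9 and Cd244a, while Cd84 lay above Cd48 and Slamf1 above Ly9 without overlap. In CD48hi MkPs Cd48 led with 24.3 ± 9.93 CPM per kilobase, followed by Cd84 with 12.3 ± 3.65, Slamf1 with 3.24 ± 1.23, Cd244a with 0.513 ± 0.261 and Ly9 with 0.481 ± 0.0759 CPM per kilobase (SD, n = 4). Here the ranges of Cd48 and Cd84 overlapped, and so did those of Cd244a and Ly9, whose order turned without CD48hi replicate 5.

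As a share of the summed level of the 5 receptors per kilobase, Cd48 made up 25.1%, 20.5% and 24.2% in CD48-/lo replicates 1, 3 and 4, against 57.4%, 64.6%, 51.6% and 61.1% in CD48hi replicates 1, 3, 4 and 5. Cd84 made up 58.7% to 61.03% in CD48-/lo and 24.5% to 37.7% in CD48hi MkPs. Cd84 was thus the most abundant receptor transcript per length in each CD48-/lo library and Cd48 in each CD48hi library. The shares are parts of a sum that includes Cd48, the gene of the sorting antigen. A lower Cd48 therefore raises the share of Cd84 even where the level of Cd84 is unchanged. The level of Cd84 itself overlapped between the groups and was not called (adjusted p = 0.290, edgeR). The summed level itself overlapped, at 20.4 to 47.0 CPM per kilobase in CD48-/lo and 23.2 to 56.0 CPM per kilobase in CD48hi MkPs.

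**Figure D4:**
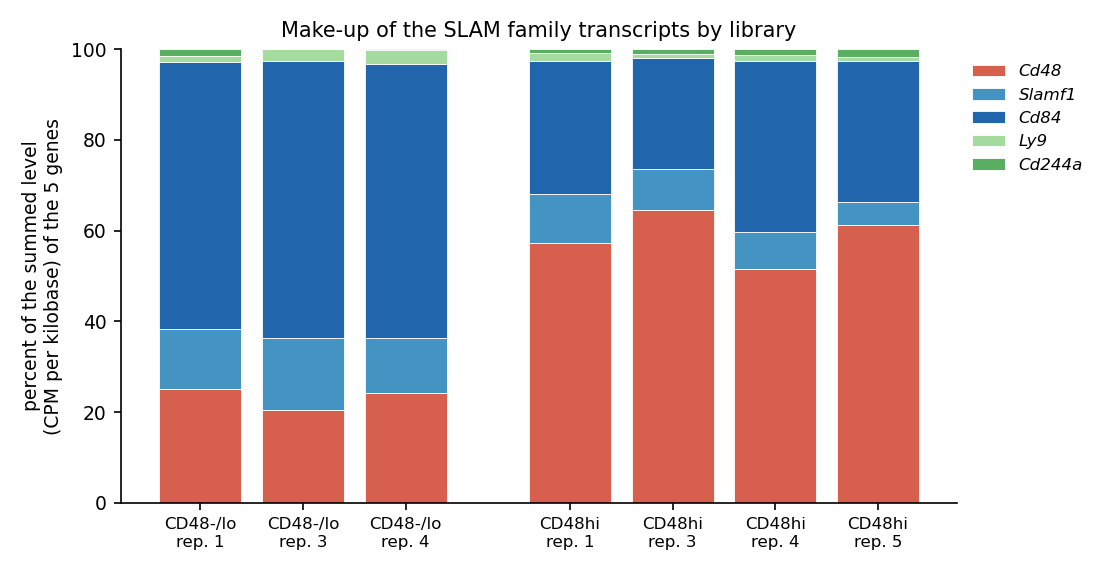
Share of each receptor in the summed level of the 5 genes in CPM per kilobase (vertical axis, percent) for each of 3 CD48-/lo and 4 CD48hi libraries. Cd48 takes 20.5% to 25.1% in CD48-/lo and 51.6% to 64.6% in CD48hi libraries, and Cd84 takes most of the remainder. A lower Cd48 by itself raises the share of Cd84.

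The members lie within 332 kilobases of chromosome 1 (171559193 to 171890718), and differences of both signs stood side by side along it. From the proximal to the distal end the log2 differences were -1.03 for Cd244a, 0.74 for Ly9, -1.51 for Cd48, 0.56 for Slamf1 and 0.79 for Cd84, none of them called. Of 19 other genes of the table within 200 kilobases of this span, 15 were tested, 8 with a positive and 7 with a negative log2 difference (median 0.05, against 0.03 for all tested genes). None of them was called by edgeR, where 0.192% of all tested genes were. F11r, which encodes junctional adhesion molecule A, came closest (76.8, 48.6 and 67.6 CPM in CD48-/lo replicates 1, 3 and 4, against 13.6, 24.4, 10.1 and 7.81 CPM in CD48hi replicates 1, 3, 4 and 5). Its groups did not overlap, with a log2 difference of 2.20 ± 0.40 (SE) and an adjusted p of 0.0572 (edgeR), or 3.3e-05 with DESeq2 and 0.0246 with limma-voom. Vangl2, a planar cell polarity gene at the other end, was at 6.996 ± 1.90 CPM in CD48-/lo and 15.7 ± 5.82 CPM in CD48hi MkPs (SD, n = 3 and n = 4, adjusted p = 0.223, edgeR).

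**Figure D5:**
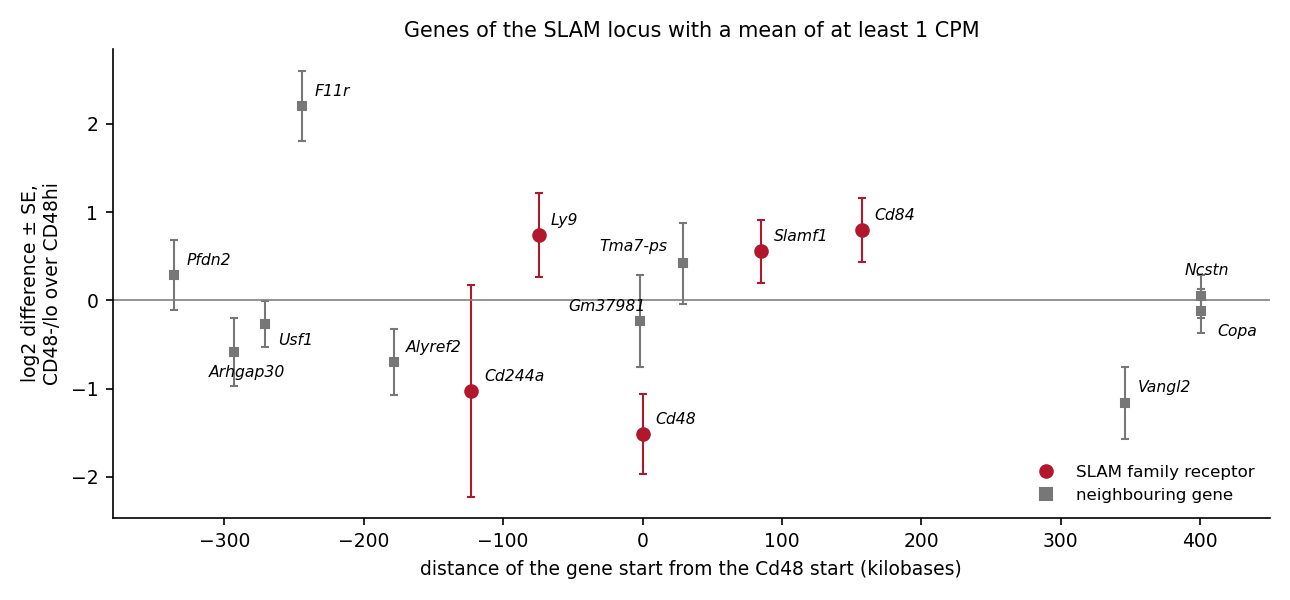
Log2 difference ± SE, CD48-/lo over CD48hi (vertical axis), of tested genes averaging 1 CPM or more within 200 kilobases of the SLAM receptors, by the distance of the gene start from that of Cd48 in kilobases (horizontal axis); red circles are the 5 receptors and grey squares their neighbors. Cd48 at -1.51 stands between neighbors with differences of -0.23 (Gm37981) and 0.42 (Tma7-ps), and F11r is highest at 2.20.

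Other members of the family were at the limit of the counts. Slamf6, which encodes the lymphocyte receptor Ly108, had 1 read in CD48-/lo and 11 reads in CD48hi libraries, and Slamf8, a receptor of myeloid cells, had 0 reads in CD48-/lo and 11 reads in CD48hi libraries, 10 of them in replicate 3. Neither passed the filter. Slamf7, Slamf9, Cd2 and the SAP-type adaptors Sh2d1a, Sh2d1b1 and Sh2d1b2 were not analysed here.

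Of 21 tested signaling partners of SLAM receptors, 8 had a positive and 13 a negative log2 difference (median -0.25, against 0.03 for all tested genes). None was called by edgeR, where 0.192% of all tested genes were. An unadjusted p under 0.05 was found for 5 of 21, where 17.2% of all tested genes had one, and DESeq2 called 2 of 21, Dok2 as higher and Lyn as lower in CD48-/lo MkPs, where it called 5.86% of genes. Dok2, an adaptor that restrains Ras signaling, was at 158.0, 75.5 and 174.9 CPM in CD48-/lo replicates 1, 3 and 4, against 67.0, 65.6, 70.0 and 63.9 CPM in CD48hi replicates 1, 3, 4 and 5 (adjusted p = 0.181, edgeR, or 0.0476 with DESeq2). All CD48-/lo libraries lay above the narrow range of CD48hi libraries. Lyn, a Src family kinase of blood cells, was at 116 ± 17.7 CPM in CD48-/lo and 218 ± 58.8 CPM in CD48hi MkPs without overlap (adjusted p = 0.199, edgeR, or 0.0366 with DESeq2). The kinase gene Fyn, whose product binds SAP, was at 22.1 ± 6.38 CPM in CD48-/lo and 12.7 ± 3.08 CPM in CD48hi MkPs (adjusted p = 0.253, edgeR). Lat2, a membrane adaptor of mast cells and B cells, was at 9.62 ± 0.393 CPM in CD48-/lo and 17.3 ± 5.75 CPM in CD48hi MkPs (adjusted p = 0.250, edgeR). The groups did not overlap for Fyn or Lat2 either, as was so for 14.6% of all tested genes.

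Because CD48 is a GPI-anchored protein, genes of anchor synthesis and transfer were counted as well. Of 26 tested, 13 had a positive and 13 a negative log2 difference, with a median of 0.00 against 0.03 for all tested genes. None was called by edgeR, where 0.192% of all tested genes were. An unadjusted p under 0.05 was found for 3 of 26, all lower in CD48-/lo MkPs, where 8.87% of all tested genes were lower at that p, and DESeq2 called 1 of 26 (Pigo), where it called 5.86% of genes. Pigo, which adds ethanolamine phosphate to the anchor, was at 10.96, 7.29 and 4.31 CPM in CD48-/lo replicates 1, 3 and 4, against 7.28, 20.3, 25.3 and 39.5 CPM in CD48hi replicates 1, 3, 4 and 5, so that CD48hi replicate 1 lay within the CD48-/lo range (adjusted p = 0.208, edgeR, or 0.0376 with DESeq2). Gpaa1, a subunit of the transamidase that attaches the anchor, was at 83.2 ± 19.1 CPM in CD48-/lo and 165 ± 80.0 CPM in CD48hi MkPs (adjusted p = 0.240, edgeR). Its groups did not overlap, as was so for 14.6% of all tested genes. Pigx, which assists the mannosyltransferase of the pathway, was at 76.7 ± 13.1 CPM in CD48-/lo and 140 ± 44.9 CPM in CD48hi MkPs (adjusted p = 0.245, edgeR). Pigp, a subunit of the enzyme of the first step, was at 51.9 ± 1.68 CPM in CD48-/lo and 33.8 ± 8.59 CPM in CD48hi MkPs without overlap (adjusted p = 0.292, edgeR).

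Among genes of the other antigens of the sort, none was called by edgeR, where 0.192% of all tested genes were. Only Itga2b had an unadjusted p under 0.05 (edgeR), where 17.2% of all tested genes had one. Kit, encoding CD117, ranged from 323 to 415 CPM in CD48-/lo and from 175 to 512 CPM in CD48hi MkPs. Itga2b, encoding CD41, ranged from 782 to 941 CPM in CD48-/lo and from 849.5 to 1956 CPM in CD48hi MkPs (log2 difference -0.70, unadjusted p = 0.0397 and adjusted p = 0.272, edgeR). Ly6a, encoding the Sca-1 antigen that the gate excluded, had 127 reads in CD48-/lo and 58 reads in CD48hi libraries, and its level was 1.15, 0.153 and 1.17 CPM in CD48-/lo replicates 1, 3 and 4, against 0.324, 0.165, 0.308 and 0.195 CPM in CD48hi replicates 1, 3, 4 and 5 (log2 difference 1.72, unadjusted p = 0.0609 and adjusted p = 0.307, edgeR). CD48-/lo replicates 1 and 4 lay above all CD48hi libraries and CD48-/lo replicate 3 below them.

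Marker lists of other blood cells were set beside the receptors, since lymphocytes, natural killer cells and myeloid cells carry several of them. The shares of all tested genes against which their counts are read were 0.0841% called as higher and 0.108% called as lower by edgeR. DESeq2 called 2.67% as higher and 3.19% as lower, of the 17529 genes to which it gave an adjusted p. An unadjusted p under 0.05 (edgeR) was found for 8.37% of tested genes as higher and 8.87% as lower. Of the 9 megakaryocyte lineage genes, 7 were higher and 2 lower in value in CD48-/lo MkPs, none called by edgeR. At an unadjusted p under 0.05, 5 were higher and 1 lower, and DESeq2 called 1 as higher (Ppbp, adjusted p = 0.00042). Granulocyte precursor genes summed to 56.6 to 140.0 CPM in CD48-/lo and 380 to 556 CPM in CD48hi MkPs (4 of 5 tested genes lower in value, 1 called by edgeR, 3 with an unadjusted p under 0.05, 3 called using DESeq2). Monocyte and dendritic cell genes summed to 31.5 to 41.2 CPM in CD48-/lo and 84.3 to 137 CPM in CD48hi MkPs (7 of 7 lower in value, 2 called by edgeR, 5 with an unadjusted p under 0.05, 5 called using DESeq2). Basophil and mast cell genes summed to 9.21 to 26.1 CPM in CD48-/lo and 42.2 to 117.5 CPM in CD48hi MkPs (4 of 5 lower in value, 1 called by edgeR, 4 with an unadjusted p under 0.05, 3 called using DESeq2). These 3 sums lay on the same side as Cd48, and their part in its level was not tested. Eosinophil sums overlapped, with 3.65 to 25.6 CPM in CD48-/lo and 19.7 to 47.3 CPM in CD48hi MkPs (3 of 3 tested genes lower in value, none called by edgeR, 1 with an unadjusted p under 0.05, 1 called using DESeq2). The overlap came from CD48-/lo replicate 3, since replicates 1 and 4 had sums of 3.65 and 4.06 CPM, and Prg2, an eosinophil granule gene, was at 21.6 CPM in CD48-/lo replicate 3, against 0.414 and 0.222 CPM in CD48-/lo replicates 1 and 4. Siglecf, which encodes a surface lectin of eosinophils, was at 3.11, 0.305 and 3.84 CPM in CD48-/lo replicates 1, 3 and 4, against 10.1, 13.3, 22.1 and 40.01 CPM in CD48hi replicates 1, 3, 4 and 5, without overlap (adjusted p = 0.124, edgeR, or 0.000387 with DESeq2).

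Stem cell genes lay on the other side, with sums of 163 to 193 CPM in CD48-/lo and 53.6 to 65.6 CPM in CD48hi MkPs (7 of 7 tested genes higher in value, none called by edgeR, 6 with an unadjusted p under 0.05, 5 called using DESeq2). Erythroid genes summed to 75.4 to 191 CPM in CD48-/lo and 8.33 to 20.5 CPM in CD48hi MkPs (8 of 8 higher in value, 3 called by edgeR, 8 with an unadjusted p under 0.05, 8 called using DESeq2). Macrophage genes summed to 10.4 to 12.96 CPM in CD48-/lo and 6.97 to 10.2 CPM in CD48hi MkPs (4 of 5 higher in value, none called by edgeR, none with an unadjusted p under 0.05, none called using DESeq2). Their part in the levels of the receptors was not tested. Of the genes of T cell and B cell receptor subunits, Cd79b had 4250 reads in CD48-/lo and 2907 reads in CD48hi libraries, and the others had few. Cd3g had 0 reads in CD48-/lo and 11 reads in CD48hi libraries, all in replicate 4, Cd3d 1 read in CD48-/lo and 10 reads in CD48hi libraries, and Cd79a 8 reads in CD48-/lo and 5 reads in CD48hi libraries. Cd4, the 1 tested gene of 6 on the T cell list, had 193 reads in CD48-/lo and 157 reads in CD48hi libraries (log2 difference 0.85 ± 1.15, SE, adjusted p = 0.730, edgeR). T cell genes summed to 0 to 2.88 CPM in CD48-/lo and 0.644 to 0.963 CPM in CD48hi MkPs. B cell genes summed to 13.5 to 34.9 CPM in CD48-/lo and 9.10 to 15.5 CPM in CD48hi MkPs, nearly all of it Cd79b. Natural killer genes, whose cells are the best known carriers of CD244, summed to 66.6 to 202 CPM in CD48-/lo and 78.4 to 217 CPM in CD48hi MkPs, nearly all of it Nkg7, while Prf1 had 0 reads in CD48-/lo and 42 reads in CD48hi libraries, all in replicate 5.

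Genes whose pattern over the 7 libraries was most like that of each receptor were sought among 10063 genes (10064 for Ly9 and Cd244a). Their log2 CPM averaged 1 or more, and predicted, clone-named and mitochondrially encoded genes were left out by symbol. The search is a description, since libraries of 2 groups share the group difference. For Cd48 the nearest genes were Ubash3a (r = 0.973), Prx (r = 0.969) and Kcnab2 (r = 0.96). Ubash3a, a dampener of T cell receptor signaling, was at 52.3 ± 16.1 CPM in CD48-/lo and 99.7 ± 14.3 CPM in CD48hi MkPs without overlap (adjusted p = 0.203, edgeR, or 0.0215 with DESeq2). For Slamf1 they were Pef1 (r = 0.987), Rnf167 (r = 0.986) and Atxn7l1 (r = 0.977). For Cd84 they were Golph3l (r = 0.994), Map3k1 (r = 0.992) and Patl1 (r = 0.991). Golph3l, a Golgi protein, was at 136, 51.1 and 102 CPM in CD48-/lo replicates 1, 3 and 4, against 23.4, 55.9, 59.5 and 50.6 CPM in CD48hi replicates 1, 3, 4 and 5. It was picked for this likeness to Cd84, so the likeness is no separate finding. Ly9 and Cd244a, whose low counts make a pattern less certain, were nearest to Crls1, Epb41l4b and Acbd3 (r from 0.974 to 0.989) and to Sik3, Pdzph1 and Dnajb12 (r from 0.966 to 0.983). None of these 15 genes was called by edgeR, where 0.192% of all tested genes were. DESeq2 called Ubash3a alone, where it called 5.86% of genes.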

How the data were processed

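RNA of sorted MkPs was measured in 7 libraries, grouped by the sample titles, from cDNA primed on poly(A) tails, amplified, tagmented and sequenced. Tools are credited to the submitters' processing notes and the methods of the study. After FastQC, the authors used GSNAP (2020-12-16) with mm10 and splice sites of Ensembl 98, and featureCounts (2.0.1) assigned reads with a unique alignment to genes. The counts they deposited are whole numbers without normalization. The table holds 21615 genes with at least 11 counts over the libraries. Deposited normalised counts, a signal made by the authors with DESeq2 (1.30.1) size factors, were used only to check recomputed size factors (largest difference 0.05 after division). Other deposited tables derived from the same counts were not used. Use of strand in counting was not given in the sources used here.

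Counts were tested with edgeR 4.0.16 in R 4.3.3: filterByExpr (16653 genes), TMM scaling, the quasi-likelihood test on group alone (log2 differences are CD48-/lo over CD48hi), a prior count of 0.125, and Benjamini-Hochberg adjustment at 0.05. The SE is the log2 difference divided by the root of F. Log2 CPM for correlations took a prior count of 2. The study itself used DESeq2, here an alternative (1.42.0, on all genes of the table). Shares of genes called by DESeq2 are of the 17529 genes to which it gave an adjusted p. The test was first checked on simulated data. Other alternatives were RLE scaling, unscaled totals, no filter, a filter of 1 CPM in 3 libraries, limma-voom with quality weights (limma 3.58.1), the replicate number as a block, a prior count of 2, and leaving out each library. Coordinates are those of the table and equal those of GENCODE M21 for the 5 members. Promoter sequences are RefSeq's (4 of 5 members matched). Members, lists and tests were chosen with earlier results of these data known. Named genes were the members, other family genes and adaptors, up to 4 genes of each further list with the smallest adjusted p, neighbors with a mean of at least 1 CPM, and the 3 genes nearest in pattern to each member. Gm37010, Gp6 and the lymphocyte and natural killer markers named were picked after their values were seen, among genes of fixed lists or of the locus.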

Additional observations from a re-analysis of the deposited data

Results flagged for a closer look

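Among 44 sets of 4 CD48hi values examined for a library standing apart, 3 had one. Chance gives about 1 in 20 for a single set, but the sets are not independent, and Patl1 was taken for its likeness to Cd84, so the count of 3 is not read against that rate. Cd84 was at 42.8 CPM in CD48hi replicate 1, against 86.0 to 90.7 CPM in the other CD48hi libraries. Patl1, a gene with a pattern like that of Cd84, was at 4.13 CPM in the same library, against 7.81 to 8.36 CPM. Pigx of GPI anchor synthesis was at 72.9 CPM in CD48hi replicate 3, against 159 to 167 CPM. Without CD48hi replicate 1, the log2 difference of Cd84 was 0.53 (adjusted p = 0.379, edgeR).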

How the results depend on the processing

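All 5 receptors kept the sign of their log2 difference in the 15 alternatives each. Cd48 ranged from -1.94 to -1.25, Slamf1 from 0.21 to 0.85, Cd84 from 0.45 to 0.96, Ly9 from 0.33 to 0.84 and Cd244a from -3.84 to -0.55, and leaving out 1 library gave both ends of each range. Among the receptors only DESeq2 changed a call: it called Cd48 (log2 difference -1.57, adjusted p = 0.0147, against 0.0626 to 0.581 in the other alternatives), hence 1 receptor and 1 gate gene, and also 2 signaling partners and 1 gene of GPI anchor synthesis. Calls of marker and neighboring genes also changed with limma-voom (F11r was called) and with the replicate block (Mpo, Hba-a1 and Hba-a2 were not, at adjusted p = 0.0535, 0.0826 and 0.0846, and F13a1, Prss34 and Rhag were, edgeR). The number of genes called over all genes, 32, was 57 with RLE scaling, 10 with no filter, 64 with the stricter filter, 1028 with DESeq2, 393 with limma-voom, and 1 (without CD48hi replicate 3) to 72 (without CD48-/lo replicate 3) when 1 library was left out. The order per kilobase moved for 0 to 2 receptors when a library was left out, 2 only without CD48hi replicate 5. The cause of these changes was not tested. With replicate number as a block 16 genes were called and no receptor (Cd48 log2 difference -1.41, adjusted p = 0.581, edgeR). Same-numbered libraries do not deviate together (r from -0.15 to -0.03 over 3 pairs, and 0 of 3 CD48-/lo libraries correlated best with their own number), so the numbers were not treated as pairs. Ly9 and Cd244a had at most 239 reads in a library, and whether depth limits their calls was not tested.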
